A study of Mus musculus with 6 samples.

Results

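Reactive Muller nuclei with Gfap or Gpnmb are nuclei of Muller glia, the radial support cells of the retina, in which transcripts of injury-response genes were detected. Their members were chosen by counts of unique molecular identifiers (UMIs, 1 per captured transcript) in each nucleus. A nucleus had to pass quality limits (over 500 UMIs, at least 200 genes and under 5% mitochondrial UMIs), to hold at least 2 UMIs of Abca8a, and to hold a UMI of at least 3 of Rlbp1, Glul, Slc1a3, Aqp4, Ano1 and Kcnj10, which are genes of Muller glia. It then needed a UMI of at least 2 of Gfap, Gpnmb, Nupr1, Pvt1 and Morrbid and a UMI of at most 1 of the interferon-response genes Ifi204, Ifi211, Rsad2, Iigp1, Gbp2, Gbp4, Gbp5 and Cxcl10. The rule found 527 members among the 4219 Muller nuclei with at most 1 interferon gene, and these lay among 56205 nuclei that passed the limits in 6 libraries. Because the rule asks for 2 of 5 genes, a member need not hold a transcript of Gfap or of Gpnmb, and 115 of the 527 held neither. The comparison class was the 2437 Muller nuclei with no UMI of any of the 5 genes, and 1255 nuclei with exactly 1 of them stood between.

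The retinas came from rd10 mice (strain B6.CXB1-Pde6b-rd10/J), in which a mutation of the rod phosphodiesterase gene Pde6b leads to loss of rods, and all groups share this genotype. Eyes were injected into the vitreous with recombinant IL-27, a cytokine that signals through the gp130 receptor chain, or with saline at postnatal day 18, and frozen retinas were taken for single-nucleus RNA sequencing at day 20. The design held 3 libraries for saline, numbered 1, 2 and 6, and 3 for IL-27, numbered 4, 5 and 10, with 36678332 to 48260748 UMIs and 8968 to 9965 barcodes each, and the IL-27 dose was 20 ng. The labels do not say which animals each library came from, so the library is the unit of the tests. Between treatments, p-values measure the spread between libraries. Between classes of nuclei compared within each library, they measure how much the class difference varied from library to library. Xist, the RNA of the inactive X chromosome, stood at 2361 CPM in the members of saline replicate 2 and 2011 CPM in those of IL-27 replicate 5 and was at 0 in the members of the other 4 libraries, which were 2 of each group.

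Muller glia span the retina and take up glutamate and potassium, recycle visual pigment and guard the metabolism of photoreceptors. After injury or during photoreceptor loss they enter gliosis, in which the intermediate filament gene Gfap rises and cytokines of the gp130 family act through JAK kinases and the factor STAT3. Gpnmb encodes a lysosomal membrane glycoprotein found in phagocytes and stressed glia, and Nupr1 a small stress-induced nuclear protein. Pvt1 and Morrbid are long noncoding RNAs, Pvt1 beside Myc and Morrbid near the pro-apoptotic gene Bcl2l11.

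To show the regulatory sequence at the genes that define the members, the windows from 250 bases before to 50 bases after the annotated start of Gfap (chr11:102897151-102897450, minus strand), Gpnmb (chr6:49036268-49036567, plus strand) and Nupr1 (chr7:126625421-126625720, minus strand) are printed 5′ to 3′ with that of Socs3 (chr11:117969317-117969616, minus strand), a feedback inhibitor of STAT3 signalling described among the results. They come from RefSeq on GRCm38.p6, and the table used held no window for Pvt1. Capitals mark TTCNNNGAA, the letters of a STAT site, CACGTG, which is an E-box, the AP-1 letters TGANTCA and the stress-response letters TGATGNAAN known from ATF4 targets, searched on both strands; in these windows the marked runs do not overlap.

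Gfap: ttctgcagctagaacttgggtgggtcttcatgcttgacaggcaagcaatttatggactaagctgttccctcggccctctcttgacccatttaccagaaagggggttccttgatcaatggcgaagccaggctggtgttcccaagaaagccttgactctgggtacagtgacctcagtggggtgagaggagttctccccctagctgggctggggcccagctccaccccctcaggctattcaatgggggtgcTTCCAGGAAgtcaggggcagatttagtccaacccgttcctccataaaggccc

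Gpnmb: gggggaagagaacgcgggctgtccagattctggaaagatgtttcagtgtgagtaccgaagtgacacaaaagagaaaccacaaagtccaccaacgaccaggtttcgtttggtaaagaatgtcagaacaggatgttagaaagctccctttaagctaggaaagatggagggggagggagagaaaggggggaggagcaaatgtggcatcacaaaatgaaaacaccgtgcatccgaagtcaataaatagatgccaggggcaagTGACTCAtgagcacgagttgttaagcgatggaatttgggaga

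Nupr1: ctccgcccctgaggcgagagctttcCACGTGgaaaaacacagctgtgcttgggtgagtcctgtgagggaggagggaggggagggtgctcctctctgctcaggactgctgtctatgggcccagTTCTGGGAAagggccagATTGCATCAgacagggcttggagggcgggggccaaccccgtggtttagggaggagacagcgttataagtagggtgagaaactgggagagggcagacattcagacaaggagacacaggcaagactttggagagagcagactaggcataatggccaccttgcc

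Socs3: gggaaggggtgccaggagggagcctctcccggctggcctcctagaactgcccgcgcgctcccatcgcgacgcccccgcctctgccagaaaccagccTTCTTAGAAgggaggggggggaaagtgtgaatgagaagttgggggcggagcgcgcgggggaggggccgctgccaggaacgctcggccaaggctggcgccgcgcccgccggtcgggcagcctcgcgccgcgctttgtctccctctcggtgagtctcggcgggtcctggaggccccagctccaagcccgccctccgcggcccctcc

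Gfap and Socs3 each held 1 match of TTCNNNGAA, Nupr1 held 1 match each of TTCNNNGAA, CACGTG and TGATGNAAN, and Gpnmb held 1 match of TGANTCA. Of all 32851 windows, 8.30% held TTCNNNGAA, 7.15% CACGTG, 7.81% TGANTCA and 3.95% TGATGNAAN. Of the 99 windows of genes called higher in the members, 8.08% held TTCNNNGAA, 11.1% CACGTG, 11.1% TGANTCA and 4.04% TGATGNAAN, or 8, 11, 11 and 4 windows, with no test.

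Most members rested on few transcripts. Exactly 2 of the 5 genes were found in 371 members, 3 in 127, 4 in 27 and all 5 in 2. Nupr1 was present in 299 members, Gfap in 265, Morrbid in 242, Gpnmb in 237 and Pvt1 in 198, and of these carriers 208, 179, 156, 153 and 142 in turn held a single UMI. The most frequent pair with no other gene was Gfap with Nupr1, in 66 members, followed by Nupr1 with Morrbid in 54. Gfap and Gpnmb stood together in 90 members, Gfap without Gpnmb in 175 and Gpnmb without Gfap in 147. In sums over members, Gfap was at 136, 100.4 and 126 CPM in saline members and 85, 129.7 and 95.5 CPM in IL-27 members (CPM, the standard unit scaled for depth, is a gene's UMIs divided by the summed UMIs of the class in that library and multiplied by a fixed total). Gpnmb was at 119.6, 130.1 and 58 CPM in saline members and 101, 146 and 132 CPM in IL-27 members, and its lowest value was in saline replicate 6. Both genes overlapped between treatments, and both are at 0 in the comparison class because the rule set them there.

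Members were deeper than the nuclei they were compared with. Their median was 6384, 5867 and 6160.0 UMIs in saline and 6230.0, 5750.0 and 6170.5 UMIs in IL-27 libraries, against 4796, 4823 and 4603 and 4419, 4432 and 4353 UMIs in nuclei lacking the 5 genes. A deeper nucleus has more chances to show a rare transcript, so the comparisons were repeated with comparison nuclei of the same depth, matched within each library. The matching kept 1 comparison nucleus per member out of 2437, so these fits held fewer nuclei. A call lost there does not by itself show that the difference became smaller. The median mitochondrial share was lower in members in all 6 libraries, at 0.182 to 0.243% of UMIs against 0.241 to 0.315%. Of 13 mitochondrially encoded genes tested, 5 were lower in members and 0 at matched depth, beside 0.832% and 1.02% of all genes tested. At the edge of the rule, the nuclei with exactly 1 gene had a median of 5117 UMIs and those with exactly 2 a median of 5777 UMIs. Saline replicate 6 stood apart: 5 of its 91 members held over 30000 UMIs, up to 119199, and together gave 36% of that library's member UMIs, while no member elsewhere passed 30000. No cell barcode was shared between libraries among the members. Of the 55837 distinct barcodes of all nuclei that passed, only 367 were shared, so a count of 0 among so few members carries little information. A doublet caller marked 95 of the 527 members, 12.6 to 31.8% per library with the most in IL-27 replicate 4, against 14.3 to 18.2% of the nuclei lacking the 5 genes.

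Free RNA in droplets puts some UMIs into nuclei that do not express a gene, and rod nuclei served as the measure of it. They were nuclei with at least 3 rod markers and no UMI of Abca8a or of the 6 other Muller genes, and their median depth was 1591 UMIs against 4863 UMIs in the 4219 Muller nuclei. This choice left out rod nuclei that held free RNA of those Muller genes. The rod shares may therefore be too low as a background for transcripts of Muller glia, by an amount that was not tested. Before thinning, Gfap was found in 12.6% of Muller and 3.13% of rod nuclei, and Gpnmb in 10.5% and 3.15%. Each nucleus was then thinned to 1000 UMIs, which left out 3 Muller and 2281 rod nuclei. At that depth Gfap was present in 3.15% (95% exact Clopper-Pearson interval 2.65 to 3.73%) of Muller nuclei and 1.63% (1.40 to 1.89%) of rod nuclei, and the intervals cover counting error only. Gpnmb was present in 2.51% (2.06 to 3.03%) of Muller and 1.86% (1.62 to 2.14%) of rod nuclei, which was closer than before thinning. Thinning treats free RNA as a fixed share of a nucleus's UMIs. If free RNA is instead a fixed amount per droplet, thinning removes more of it from the deeper Muller nuclei. The thinned rod shares would then be too high as a background, which was not tested. Morrbid differed most, with 2.51% (2.06 to 3.03%) against 0.386% (0.277 to 0.523%), and Pvt1 stood at 1.59% (1.23 to 2.01%) against 0.593% (0.456 to 0.758%) and Nupr1 at 4.15% (3.57 to 4.80%) against 2.48% (2.19 to 2.79%). At least 2 of the 5 genes occurred in 1.21% (0.902 to 1.59%) of Muller and 0.405% (0.293 to 0.545%) of rod nuclei.

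Microglia, the phagocytes of the retina, held 3 of the 5 genes more often than Muller nuclei did. In 1099 microglial nuclei at 1000 UMIs, Gpnmb was present in 14.7% (12.7 to 17%), Pvt1 in 11.3% (9.47 to 13.3%) and Morrbid in 8.55% (6.97 to 10.4%), whereas Gfap was present in 1.09% (0.565 to 1.90%). At least 2 of the 5 genes occurred in 6.64% (5.24 to 8.28%) of microglial nuclei, against 1.21% of Muller nuclei at that depth. Before thinning these shares were 17.2% and 12.5%, so holding 2 of the 5 genes was not particular to Muller nuclei. The 10 microglial markers were all detected in the members, with a summed level of 195 to 387 CPM per library against 201 to 254 CPM in the nuclei lacking the 5 genes, higher in the members of 3 of 6 libraries. A nucleus was called mixed if it held at least 2 markers of microglia, astrocytes, pigment cells or the paper's saline-specific Muller subpopulation. Of the 527 members 147 were mixed, 22.1 to 30.8% per library, against 20.8 to 25.9% of nuclei lacking the 5 genes. In the main comparison below, leaving out mixed nuclei gave 115 higher and 95 lower genes of 7616. Of the calls made with all nuclei, 121 (69.9%) were kept. The part of the microglial markers alone was not tested. The Muller label was checked on 6 markers that the rule did not use. At least 3 of them were found in 93.7% of members and 88.6% of nuclei lacking the 5 genes. These percentages were not corrected for depth, and members were the deeper class. The summed levels were 2896 ± 548 and 3117 ± 289 CPM (SD, n = 6 libraries each), higher in the members of 2 of 6 libraries. Of the rule's 6 further Muller genes, nuclei with none of the 5 genes held a median of 5 and those with exactly 2 a median of 4. The 8 rod markers summed to 395 to 1583 CPM in the members and 479.9 to 1124 CPM in the comparison class, higher in the members of 3 of 6 libraries. Mlana, a pigment cell marker, and Cdh5, an endothelial one, were at 0 in the members.

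**Figure D1:**
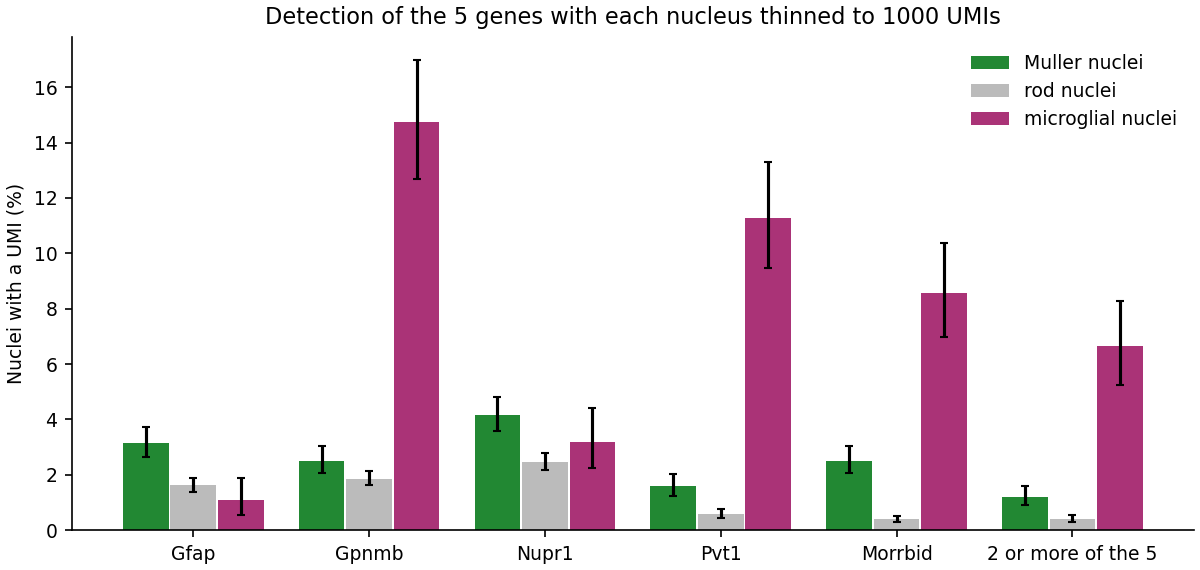
Percent of nuclei with at least 1 UMI of each of the 5 genes, and with 2 or more of them, after each nucleus was thinned to 1000 UMIs; bars are pooled nuclei of 6 libraries and error bars are 95% exact intervals. The intervals of Muller and rod nuclei overlap for Gpnmb and do not overlap for Gfap, Nupr1, Pvt1 and Morrbid. Microglial nuclei stand highest for Gpnmb, Pvt1 and Morrbid and for 2 or more of the 5.

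How often the genes occurred together was described at equal depth. With each of 4160 nuclei thinned to 2000 UMIs, Morrbid was present in 13.2% of the 235 nuclei with Gfap and 4.64% of those without it. Gpnmb was present in 8.51% of the nuclei with Gfap and 4.56% of those without, and Nupr1 in 12.3% and 7.39%. Pvt1 gave 2.98% with and 3.13% without Gfap, from 7 nuclei that held both, and so followed Gfap least. These shares pool nuclei of 6 libraries and carry no test.

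The first question was whether IL-27 changed how many Muller nuclei were reactive. Members made up 11.6, 11.4 and 10.6% of Muller nuclei in saline replicates 1, 2 and 6 and 8.48, 17.7 and 19.7% in IL-27 replicates 4, 5 and 10. IL-27 replicate 4 was the lowest of all libraries and replicates 5 and 10 were the highest, so the groups overlapped. The means were 11.2% ± 0.551 in saline and 15.3% ± 5.99 with IL-27 (SD, n = 3 each), and the difference of 4.11 percentage points gave p = 0.4 in a two-sided exact permutation test, whose smallest possible p here is 0.1. With every nucleus thinned to 2000 UMIs, the shares were 3.84, 3.53 and 2.47% and 1.95, 6.34 and 5.85% in the same order, with means of 3.28% ± 0.717 and 4.72% ± 2.41 (SD, n = 3 each; exact permutation p = 0.4). As a share of all nuclei that passed, members made up 0.951% ± 0.0225 in saline and 0.925% ± 0.228 with IL-27 (SD, n = 3 each; exact permutation p = 0.7), so that direction was reversed. Muller nuclei with at most 1 interferon gene numbered 717 to 862 in saline and 436 to 778 in IL-27 libraries, and without IL-27 replicate 10 the difference in their share was 1.90 percentage points.

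**Figure D2:**
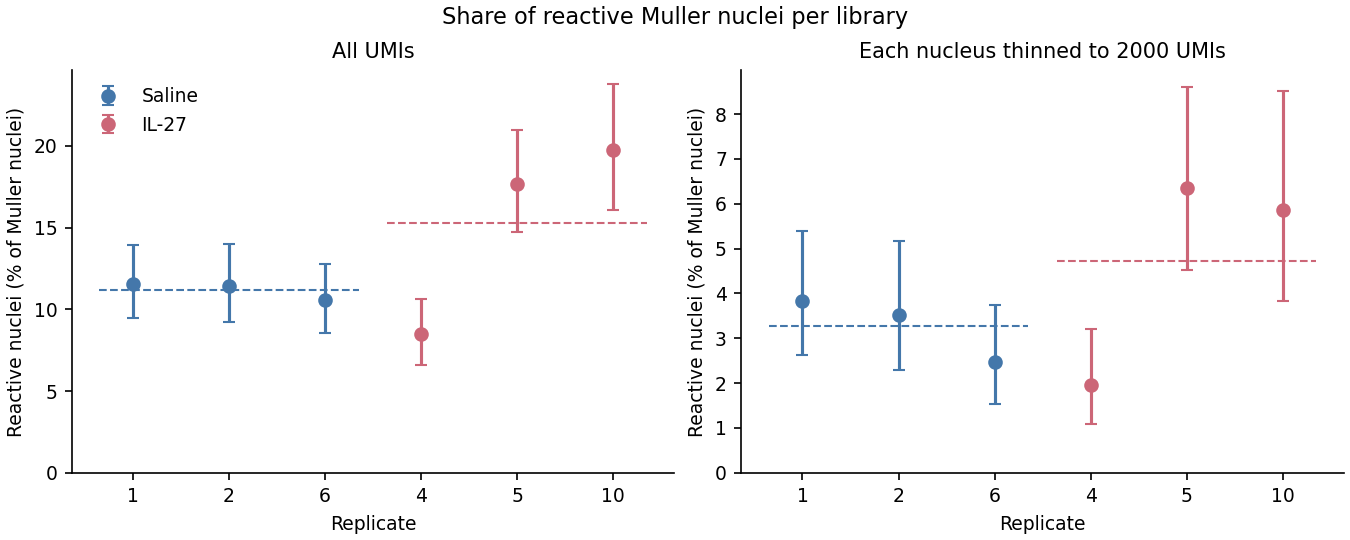
Members as percent of Muller nuclei with at most 1 interferon gene, per library, with all UMIs (left) and with each nucleus thinned to 2000 UMIs (right); points carry 95% exact intervals of counting error and dashed lines are group means. IL-27 replicate 4 lies lowest in both panels and IL-27 replicates 5 and 10 highest, at 17.7% and 19.7% on the left, with the 3 saline libraries between.

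The limit on interferon genes kept out a class of nuclei in which the 5 genes were frequent. Of the 590 Muller nuclei with 2 or more interferon genes, 176 held at least 2 of the 5 genes, which was 20, 36.9 and 23.1% per saline library and 30, 28.8 and 39.5% per IL-27 library. Thinned to 2000 UMIs these shares were 5.52, 10.8 and 7.69% and 10, 5.04 and 11.6%, above the thinned share of the other Muller nuclei in 5 of 6 libraries and below it in IL-27 replicate 5. Counted with these nuclei, reactive nuclei made up 12.9% ± 1.77 of Muller nuclei in saline and 17.8% ± 7.22 with IL-27 (SD, n = 3 each; exact permutation p = 0.4).

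The main comparison set members against nuclei of the same library that lacked the 5 genes. Neat1, Cd44, Socs3, Sbno2, Osmr and Runx1 were higher in the members, and Efnb2, Bsg, Apoe and Luzp2 were lower. Of 9971 genes tested, 90 (0.903%) were higher and 83 (0.832%) lower in the members at an adjusted p under 0.05 in the edgeR quasi-likelihood test on summed counts with the library as a block (Benjamini-Hochberg over all genes tested, the 20 genes of the rule left out). Of these, 82 were higher and 74 lower in every library. DESeq2 called 37 (0.371%) higher and 23 (0.231%) lower, of which 58 were shared with edgeR, 33.5% of the edgeR calls and 96.7% of its own. With comparison nuclei matched on depth, 99 genes (1.19%) were higher and 85 (1.02%) lower of 8340, and 84 calls were shared, which is 48.6% of the main calls and 45.7% of the matched ones; all 167 main calls that were tested there kept their sign. With doublets removed from both classes and depth matched, 77 genes were higher and 115 lower of 6733. There 105 calls were shared, which is 60.7% of the main calls, and 159 of the 160 main calls tested kept their sign. Without nuclei over 30000 UMIs, 195 (2.05%) were higher and 149 (1.57%) lower. Leaving out saline replicate 1 or 2 gave 48 and 56 higher genes and IL-27 replicate 5 or 10 gave 53 and 58, and the lower genes numbered 42 without saline replicate 1, and 55 and 43 without IL-27 replicate 4 or 5. Without the library as a block only Cd44, Sbno2, Runx1 and Crybb3 were higher and Bsg lower.

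Neat1 (ENSMUSG00000092274, chromosome 19, 5824708 to 5845478, minus strand), the long noncoding RNA that builds nuclear paraspeckles, had the smallest adjusted p among the higher genes. It was at 263, 230.5 and 131 CPM in the saline members (replicates 1, 2 and 6) and 170.1, 395 and 394 CPM in the IL-27 members (replicates 4, 5 and 10), and at 67.1, 114 and 69.97 CPM in saline and 48.5, 134 and 124 CPM in IL-27 nuclei lacking the 5 genes. Members stood above the comparison class in all 6 libraries, with the lowest value in saline replicate 6 (log2FC 1.48 ± 0.13, adjusted p = 8.69e-05, edgeR). It was also 1.45 at matched depth. Cd44 (ENSMUSG00000005087, chromosome 2, 102811141 to 102901665, minus strand), a receptor for hyaluronan on the end feet and processes of reactive glia, was at 393, 357 and 227 CPM in saline members and 362, 460.5 and 382 CPM in IL-27 members. It was at 188, 200.03 and 187 CPM in saline and 176, 217 and 163 CPM in IL-27 nuclei lacking the 5 genes. Every member value of Cd44 lay above every comparison value (log2FC 0.92 ± 0.10, adjusted p = 0.000113, edgeR), a separation that 0.411% of the genes tested showed in this direction. Saline replicate 6 was again the lowest of the members.

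Socs3, Osmr and Bcl3, genes of the gp130 and JAK-STAT pathway, were higher in the members. Socs3 (ENSMUSG00000053113, chromosome 11, 117966079 to 117970047, minus strand) was at 20.7, 35.3 and 28.4 CPM in saline members and 22.3, 49.5 and 26 CPM in IL-27 members, and at 9.53, 9.03 and 8.75 CPM in saline and 3.36, 19.1 and 15.9 CPM in IL-27 nuclei lacking the 5 genes. The classes did not overlap, although these levels rest on 119 member UMIs in all (log2FC 1.53 ± 0.23, adjusted p = 0.000619, edgeR). Osmr (ENSMUSG00000022146, chromosome 15, 6813577 to 6874969, minus strand), which encodes the oncostatin M receptor subunit that pairs with gp130, was at 177, 188 and 128 CPM in saline members and 223, 195 and 182 CPM in IL-27 members. Its comparison levels were 124, 134 and 108 CPM in saline and 119.7, 129 and 135 CPM in IL-27 nuclei lacking the 5 genes, so the member level was higher in all 6 libraries (log2FC 0.53 ± 0.09, adjusted p = 0.00254, edgeR). Bcl3, an NF-kappaB cofactor, was at 24.1 ± 4.36 CPM against 13.3 ± 3.93 CPM (log2FC 0.90 ± 0.21, adjusted p = 0.0283, edgeR) and was called in 2 of the 6 fits that left out a library. Sbno2, a transcriptional coregulator induced by STAT3 in glia, was at 105, 123 and 62.3 CPM in saline members and 99.2, 115 and 116 CPM in IL-27 members. In the nuclei lacking the 5 genes it was at 44.4, 43 and 46.6 CPM in saline and 36.2, 52.6 and 71.5 CPM in IL-27 libraries, with the highest comparison value and the lowest member value overlapping (log2FC 1.07 ± 0.14, adjusted p = 0.000191, edgeR). Stat3 itself was at 226 ± 33.8 CPM against 189.9 ± 9.78 CPM and did not pass the test (log2FC 0.25 ± 0.09, adjusted p = 0.193, edgeR), nor did Il6st, the gp130 chain, at 87.8 ± 18.1 CPM against 101 ± 5.70 CPM (log2FC -0.20 ± 0.11, adjusted p = 0.500).

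Over all genes tested, 0.903% were higher and 0.832% lower in the main fit, and 1.19% and 1.02% at matched depth. Counted over the whole list of gp130 and JAK-STAT signalling, 3 of 18 tested genes were higher and none lower (Socs3, Osmr and Bcl3), with a median log2FC of 0.08 beside 0.01 over all genes tested. At matched depth the same 3 of 17 passed and the median was -0.01. In the list of reactive gliosis 5 of 17 were higher and none lower, with a median of 0.29, and these were Cd44, Socs3, Osmr, Cp and Bcl3. Cp, or ceruloplasmin, a copper-bearing ferroxidase, was at 2575 ± 605 CPM against 1915 ± 287 CPM (log2FC 0.41 ± 0.07, adjusted p = 0.00254, edgeR). At matched depth 7 of 15 passed, with Cebpd, a transcription factor of the acute phase response, and Vim, the filament partner of Gfap, added, and the median was 0.60. In the main fit Cebpd was at 116 ± 21.5 CPM against 87.6 ± 29.9 CPM (log2FC 0.44 ± 0.12, adjusted p = 0.0595, edgeR) and Vim at 56.6 ± 16.9 CPM against 46.7 ± 12.3 CPM (log2FC 0.29 ± 0.15, adjusted p = 0.469). C3 and Serpina3n, markers of reactive astrocytes, had log2FC values of 0.32 and 0.29 and adjusted p of 0.696 and 0.591 in edgeR.

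**Figure D3:**
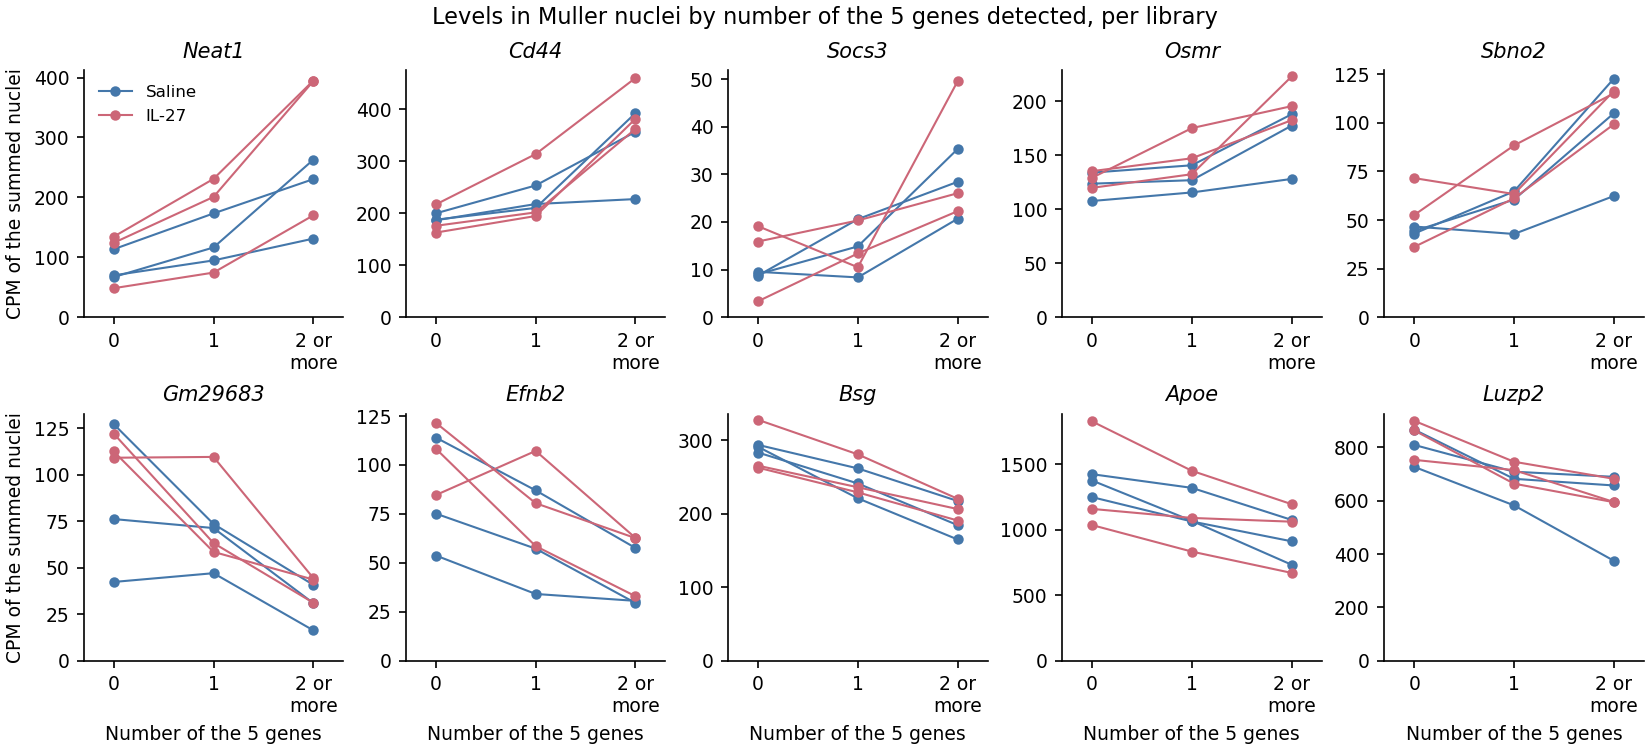
CPM of summed nuclei for 10 named genes in Muller nuclei with none, exactly 1 and 2 or more of the 5 genes; each line is 1 of 6 libraries, blue for saline and red for IL-27. In every library Neat1, Cd44, Socs3, Osmr and Sbno2 are higher, and Gm29683, Efnb2, Bsg, Apoe and Luzp2 lower, on the right than on the left.

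Other genes with the smallest adjusted p among the higher ones span transcription, adhesion and signalling. Runx1, a transcription factor, was at 16 ± 5.62 CPM against 4.29 ± 1.69 CPM (log2FC 1.82 ± 0.28, adjusted p = 0.00130, edgeR), a low level that several alternatives did not test. Crym, which binds thyroid hormone, was at 483 ± 90.9 CPM against 314 ± 59.96 CPM (log2FC 0.62 ± 0.07, adjusted p = 8.84e-05). Lrmda was at 264 ± 51.8 CPM against 164 ± 39.4 CPM and Aox1, an aldehyde oxidase, at 90.3 ± 34.9 CPM against 44.3 ± 8.90 CPM, with log2FC values of 0.69 ± 0.09 and 0.97 ± 0.13. Vav3, a guanine nucleotide exchange factor, Cdh13, a cadherin without a cytoplasmic tail, and Col4a6, a basement membrane collagen chain, rose by 0.75 ± 0.10, 0.69 ± 0.10 and 0.66 ± 0.10 on the log2 scale. Dclk1, a microtubule-associated kinase, Ank2, an adaptor of the membrane skeleton, and Ascc3, a helicase, rose by 0.60 ± 0.08, 0.41 ± 0.07 and 0.45 ± 0.08. All of these were higher in 6 of 6 libraries, with adjusted p from 8.84e-05 for Crym to 0.00254 for Ascc3 in edgeR, and each but Runx1, which was not tested there, also passed at matched depth.

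Among the lower genes, Gm29683, a long noncoding RNA, had the smallest adjusted p. It was at 31, 40.9 and 16.4 CPM in saline members and 44.5, 43.7 and 31.2 CPM in IL-27 members, and at 76.3, 127 and 42.4 CPM in saline and 109, 113 and 122 CPM in IL-27 nuclei lacking the 5 genes, lower in 6 of 6 libraries (log2FC -1.48 ± 0.13, adjusted p = 1.04e-06, edgeR). Apoe, the lipid carrier that Muller glia secrete, was at 911, 1074 and 733 CPM in saline members and 1061, 670.3 and 1194 CPM in IL-27 members. Its comparison levels were 1248, 1423 and 1375 CPM in saline and 1158, 1035 and 1825 CPM in IL-27 nuclei lacking the 5 genes, and both classes were lowest in IL-27 replicate 5 (log2FC -0.52 ± 0.08, adjusted p = 0.00138, edgeR); at matched depth the log2FC was -0.24 with an adjusted p of 0.0988, and the call was lost. Bsg, or basigin, the partner of lactate transporters, was at 198 ± 21.3 CPM against 287 ± 23.6 CPM with no overlap between classes, as 0.431% of the genes tested showed in this direction (log2FC -0.55 ± 0.08, adjusted p = 0.000619, edgeR), against an adjusted p of 0.0551 at matched depth. Pmepa1, a target and inhibitor of TGF-beta signalling, was at 207 ± 51.2 CPM against 319 ± 55.9 CPM (log2FC -0.64 ± 0.08, adjusted p = 0.000220). Luzp2, Msi1, an RNA-binding protein of neural progenitors and glia, and Deptor, an inhibitor of mTOR, fell by 0.48 ± 0.08, 0.47 ± 0.08 and 0.48 ± 0.08 on the log2 scale, with no overlap between classes. Hif3a, a hypoxia-inducible factor subunit, and Sned1, a matrix protein, fell by 0.86 and 0.73 and had adjusted p of 0.0564 and 0.113 at matched depth. The noncoding genes Gm6999, Gm26709, Gm11149 and Pax6os1 fell by 0.57, 0.63, 0.42 and 0.73; the last 2 are annotated as antisense genes, and whether the counting used strand is not given in the sources used here. Abca8b fell by 0.47, and as a close relative of Abca8a, which chose the nuclei, it may share reads with it and is uncertain.

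The genes of normal Muller function differed in direction between the main and the depth-matched comparison. Of 32 tested genes in the list of Muller identity, 5 were lower and none higher, with a median log2FC of -0.11 beside 0.01 over all genes. Over all genes 0.832% were lower and 0.903% higher. At matched depth 1 was lower and 2 higher, beside 1.02% and 1.19% of all genes tested, with a median of 0.08. Medians for rod, cone and bipolar cell markers were lower in the matched fit. The median log2FC of 8 rod markers was -0.01 in the main and -0.27 in the matched fit. That of 4 cone markers was -0.16 and -0.39, and that of 6 bipolar cell markers -0.08 and -0.62, with 1 of these, Isl1, called lower when matched. Their part in the shifts of the Muller and gliosis lists was not tested. The 5 lower ones were Apoe, Clu, Id1, Slc1a2 and Id3. Slc1a2, a glutamate transporter, was at 198 ± 47.8 CPM against 263 ± 49.8 CPM (log2FC -0.42 ± 0.08, adjusted p = 0.00791, edgeR) and stayed lower at matched depth with an adjusted p of 0.00793. Clu, or clusterin, an extracellular chaperone, was at 324 ± 68.1 CPM against 432 ± 71.2 CPM (log2FC -0.42 ± 0.08, adjusted p = 0.00453) and had an adjusted p of 0.205 at matched depth. Id1 and Id3, targets of BMP signalling, were at 10.00 ± 6.40 CPM against 25.1 ± 15.8 CPM and 52 ± 10.1 CPM against 81.9 ± 19 CPM (adjusted p of 0.00752 and 0.0238, edgeR), and at matched depth Id3 lost its call and Id1 was not tested. Sox9, a glial transcription factor, was at 51.3 ± 11 CPM against 34.9 ± 7.58 CPM (log2FC 0.54 ± 0.15, adjusted p = 0.0600, edgeR) and was higher at matched depth with an adjusted p of 0.0137, as was Vim. Among the rule's own Muller genes, which are given as levels only, Glul was at 589 ± 53.9 CPM in members and 992 ± 113 CPM in the comparison class, Abca8a at 1015 ± 167 CPM and 1451 ± 203 CPM, Rlbp1 at 251 ± 55.5 CPM and 318 ± 45.9 CPM, and Slc1a3 at 1118 ± 269 CPM and 935 ± 70.6 CPM (SD, n = 6 libraries each). In the same order, Aqp4 was at 451 ± 83.1 and 416 ± 44.5 CPM, Ano1 at 236 ± 101 and 361 ± 103 CPM, and Kcnj10 at 78.5 ± 20.3 and 93.9 ± 6.66 CPM. The rule's minimum of UMIs asks for a higher CPM in a shallower nucleus, and the comparison nuclei were shallower. These levels were not matched on depth and therefore cannot show a loss of Muller identity.

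Of 24 tested genes for lysosomes and lipid handling, 2 were higher and 1 lower, beside 0.903% and 0.832% of all genes tested, with a median log2FC of 0.20. Abca1, the cholesterol exporter, was at 501 ± 119.7 CPM against 367 ± 64.8 CPM (log2FC 0.43 ± 0.09, adjusted p = 0.0155, edgeR) and Ctsd, or cathepsin D, at 165 ± 31.5 CPM against 124 ± 32.4 CPM (log2FC 0.43 ± 0.11, adjusted p = 0.0387). At matched depth 5 of 21 were higher, beside 1.19% of all genes tested, adding Lamp2, Cd63 and Ctsb. None was lower there, since Apoe had lost its call. In the main fit Ctsb was at 118 ± 27.3 CPM against 87.1 ± 14.3 CPM (log2FC 0.42 ± 0.11, adjusted p = 0.0594, edgeR) and Grn, or progranulin, at 42.6 ± 11.6 CPM against 28.7 ± 7.52 CPM (log2FC 0.54 ± 0.16, adjusted p = 0.0880), while Mitf, a factor that drives Gpnmb in pigment cells, was at 42.7 ± 12.7 CPM against 38 ± 8.52 CPM (log2FC 0.19 ± 0.20, adjusted p = 0.799). The integrated stress response list held 1 higher gene of 13, Hspa5, the endoplasmic reticulum chaperone, at 130.4 ± 25.1 CPM against 90.6 ± 21.9 CPM (log2FC 0.54 ± 0.11, adjusted p = 0.0105, edgeR), and Atf4, its central factor, was at 34.1 ± 7.89 CPM against 24 ± 4.35 CPM (log2FC 0.51 ± 0.17, adjusted p = 0.172). None of 10 targets of Trp53 and Myc, none of 12 apoptosis regulators and none of 9 immediate early genes passed in either direction, although Casp8, an initiator caspase on the apoptosis list, was higher at matched depth. Zmat3, a Trp53 target, was closest, at 27.2 ± 5.77 CPM against 16.3 ± 3.38 CPM (log2FC 0.69 ± 0.19, adjusted p = 0.0603, edgeR).

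The lists that follow are set beside the shares of all genes tested. These were 0.903% higher and 0.832% lower in the main fit and 1.19% and 1.02% at matched depth. Without nuclei over 30000 UMIs they were 2.05% and 1.57%. Interferon-response genes that the rule did not cap were not called in the main comparison. None of 35 passed, 27 lay above 0, beside 5157 of 9971 over all genes tested, and the median log2FC was 0.10. At matched depth none of 32 was called and the median was 0.19. The rule had kept Muller nuclei with 2 or more of its interferon genes out of both classes. Of those nuclei, 176 held at least 2 of the 5 genes. These counts therefore cannot show whether reactive nuclei without that limit differ in interferon-response genes. Without nuclei over 30000 UMIs 2 of 35 were higher, Stat2 and Nlrc5, a regulator of MHC class I genes. Stat2, a transcription factor of the type I interferon response, was at 199.7 ± 48.1 CPM against 164 ± 44 CPM (log2FC 0.29 ± 0.08, adjusted p = 0.0675, edgeR). None of 19 genes of extracellular matrix and adhesion and none of 23 of glycolysis and lactate exchange was called either, with Itgb8, an integrin subunit, higher at matched depth. Without nuclei over 30000 UMIs 3 of 18 matrix genes were higher, Itgb8, Itgb1 and Adamts1, and Slc16a1, a lactate transporter, was lower. In the list of antioxidant and metal handling, Cp was the 1 gene of 21 that passed, and at matched depth the metallothioneins Mt1 and Mt2, which bind zinc, were also higher. Among growth and neurotrophic factors 1 of 17 was lower, Il33, an alarmin, at 152 ± 38.8 CPM against 199.9 ± 35.6 CPM (log2FC -0.42 ± 0.08, adjusted p = 0.00881, edgeR), with an adjusted p of 0.527 at matched depth. Vegfa was at 85.5 ± 21.1 CPM against 124 ± 29.2 CPM (log2FC -0.53 ± 0.14, adjusted p = 0.0600). The regeneration and Hippo-YAP list held 1 lower gene of 12, Ccn1, at 43.9 ± 34.5 CPM against 68.7 ± 57.4 CPM (log2FC -0.61 ± 0.15, adjusted p = 0.0427, edgeR), which was lower in 5 of 6 libraries, kept its call in 1 of the 6 fits that left out a library and had an adjusted p of 0.496 at matched depth. Without nuclei over 30000 UMIs Ccn1 was not called and Tead1 and Hmga2 of that list were higher.

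Efnb2, Ephb2 and Ephb1, which mark position along the dorsal to ventral axis of the eye, also differed. Efnb2, the dorsal ephrin, was at 29.5, 57.6 and 30.6 CPM in saline members and 62.8, 62.7 and 33 CPM in IL-27 members, and at 75.2, 114 and 53.8 CPM in saline and 84.6, 122 and 108 CPM in IL-27 nuclei lacking the 5 genes. It was lower in 6 of 6 libraries (log2FC -1.01 ± 0.14, adjusted p = 0.000322, edgeR), and at matched depth the log2FC was -1.09. Ephb2, a ventral Eph receptor, was at 152, 201 and 124 CPM in saline members and 124, 223 and 128 CPM in IL-27 members against 95, 95.9 and 79.4 CPM in saline and 96.2, 157 and 103 CPM in IL-27 nuclei lacking the 5 genes, higher in 6 of 6 (log2FC 0.61 ± 0.10, adjusted p = 0.00247). Ephb1 was at 181 ± 40.9 CPM against 248 ± 34.2 CPM and lower (log2FC -0.48 ± 0.09, adjusted p = 0.00453, edgeR). The ventral factor Vax2 was at 26.6 ± 7.36 CPM against 16.5 ± 4.76 CPM (log2FC 0.65 ± 0.22, adjusted p = 0.163) and Tbx2, a dorsal factor, at 86.8 ± 15.5 CPM against 105 ± 11.5 CPM (log2FC -0.29 ± 0.10, adjusted p = 0.194), and neither passed. In all, 1 of 3 tested dorsal genes was lower and 1 of 4 ventral genes was higher with 1 lower. Beside this, 0.832% of all genes tested were lower and 0.903% higher. The position of a nucleus in the retina is not recorded in these data.

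**Figure D4:**
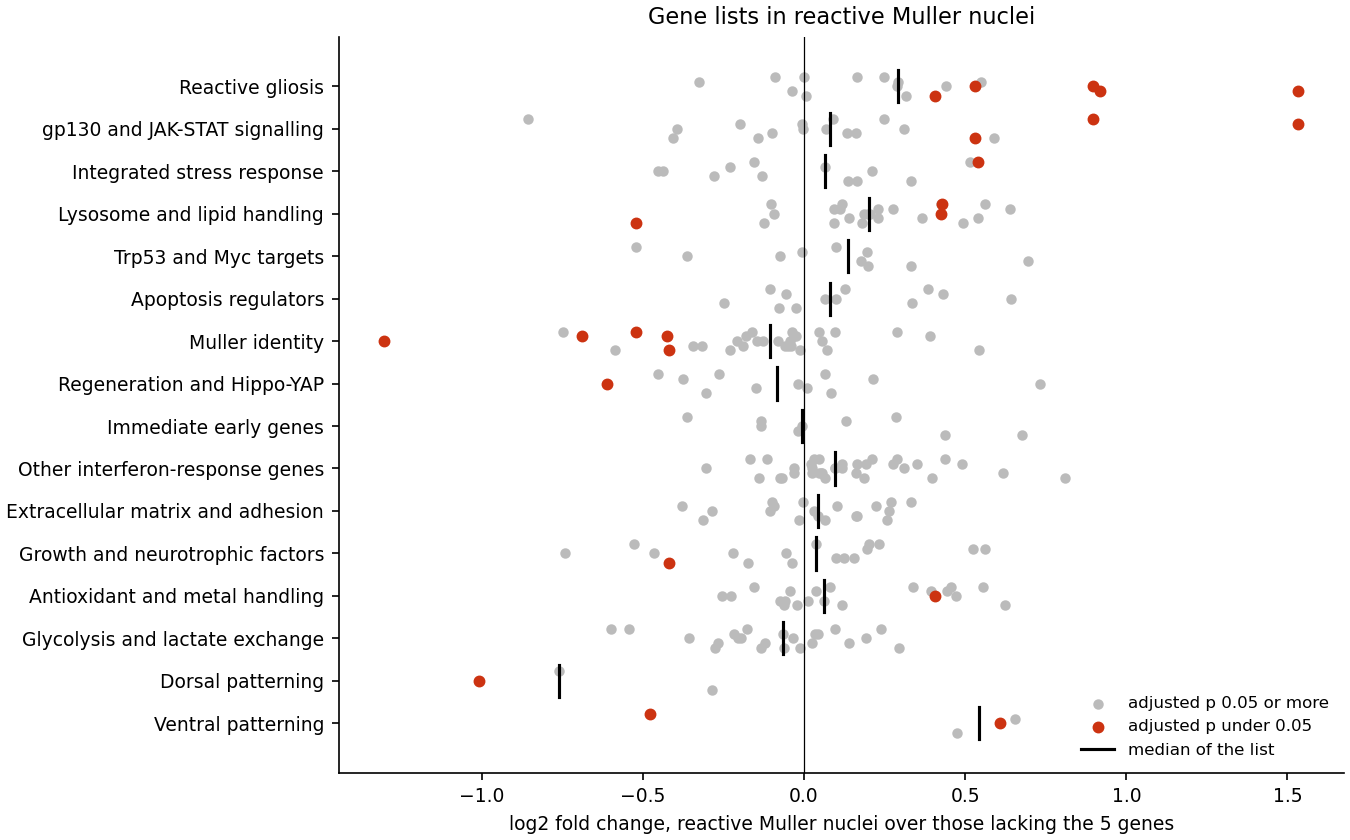
log2 fold change of each tested gene in 16 gene lists, members over nuclei lacking the 5 genes, with the library as a block; each point is 1 gene, red where the adjusted p was under 0.05, and black bars are list medians. Reactive gliosis holds 5 higher genes and no lower one, Muller identity 5 lower and no higher one, and the 3 tested dorsal genes all lie below 0.

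The same contrast was then made for the carriers of each gene, in a comparison chosen after the data were seen. The 5 groups share nuclei with each other and share the comparison nuclei, so their agreement is not independent and the values are only set side by side. Members with Gfap had 53 higher (0.571%) and 21 lower genes (0.226%), members with Gpnmb 13 (0.148%) and 19 (0.216%), members with Nupr1 81 (0.914%) and 59 (0.666%), members with Pvt1 48 (0.567%) and 57 (0.673%), and members with Morrbid 39 (0.428%) and 30 (0.329%). In the order Gfap, Gpnmb, Nupr1, Pvt1 and Morrbid, the log2FC of Cd44 was 1.09, 1.04, 0.98, 0.71 and 1.08 and that of Neat1 was 1.496, 1.59, 1.68, 1.64 and 1.53, and both genes passed in all 5. For Socs3 it was 1.94, 1.14, 0.89, 1.59 and 1.42, with adjusted p of 0.00219 for Gfap, 0.260 for Gpnmb and 0.218 for Nupr1 carriers in edgeR. Cp gave 0.51, 0.24, 0.56, 0.20 and 0.55 and Dclk1 0.96, 0.27, 0.69, 0.60 and 0.64, and the value of Dclk1 in carriers of Gpnmb was the lowest of its 5.

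The direct question was whether Gfap-bearing and Gpnmb-bearing members differ. Members with Gfap and no Gpnmb (18 to 45 per library) were compared with members with Gpnmb and no Gfap (16 to 37) within libraries. Of 3507 genes tested, 1 (0.0285%) was higher in Gfap-bearing members and none (0%) was lower in edgeR, while 132 and 104 had an unadjusted p under 0.05 in each direction; DESeq2 called A330015K06Rik lower and no gene higher. The higher gene was Dclk1, at 291, 478 and 259.7 CPM in saline and 646, 596 and 417 CPM in IL-27 libraries with Gfap and 179, 168 and 96.1 CPM in saline and 249, 248 and 286 CPM in IL-27 libraries with Gpnmb. It was higher with Gfap in 6 of 6 libraries (log2FC 1.14 ± 0.17, adjusted p = 0.0107, edgeR), but the adjusted p rose to 0.114 without saline replicate 2, to 0.146 and 0.0747 without IL-27 replicate 4 or 5, and to 0.643 without the library as a block. A2m, a protease inhibitor, was at 205 ± 169 CPM against 55.2 ± 22.1 CPM (adjusted p = 0.0707, edgeR), and Osmr at 229 ± 56.5 against 139.9 ± 50.7 CPM (adjusted p = 0.354), each higher with Gfap in 6 of 6 libraries. Cd44 was at 355 ± 118 and 367 ± 104 CPM, a log2 difference of -0.05 ± 0.16. Of 11 tested lysosome and lipid genes, 10 were below 0 and none passed, with a median log2FC of -0.27 beside -0.01 over all genes. All 12 matrix and adhesion genes and 21 of 24 Muller identity genes were above 0 with no call. The 4 tested rod markers were all below 0, with a median of -1.30, and their part was not tested.

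The last question was what IL-27 changed within the members. Adamts19 (ENSMUSG00000053441, chromosome 18, 58836667 to 59054060, plus strand), a secreted metalloprotease, was the 1 gene of 8515 (0.0117%) called higher with IL-27, and none (0%) was lower in edgeR; 135 and 82 genes had an unadjusted p under 0.05 in each direction, and DESeq2 called Adamts19 and Col25a1 higher and none lower. Adamts19 was at 39.9, 44.6 and 28.4 CPM in saline members and 188, 166 and 311 CPM in IL-27 members. The lowest IL-27 value lay well above the highest saline value (log2FC 2.59 ± 0.28, adjusted p = 0.0204, edgeR). In the nuclei lacking the 5 genes it was at 96.8, 77.4 and 23 CPM in saline and 321, 353 and 714 CPM in IL-27 libraries, so IL-27 libraries were higher in both classes, and the log2 difference between the effects was -0.37 ± 0.30 (adjusted p = 0.9999, edgeR). Its call was lost without saline replicate 1 (adjusted p = 0.291), without IL-27 replicate 4, 5 or 10 (0.0693, 0.0783 and 0.0576), with the median UMIs as a covariate (0.148) and with a minimum count of 30 (0.0589), while the log2FC stayed between 2.27 and 2.75. Members against nuclei lacking the 5 genes, Adamts19 was lower in 5 of 6 libraries (log2FC -0.91 ± 0.15, adjusted p = 0.00690, edgeR), with an adjusted p of 0.0770 at matched depth.

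The other genes that the study followed in Muller glia did not pass within members. Prss56, a serine protease of Muller glia, was at 13.3, 7.44 and 0 CPM in saline members and 52.6, 64.1 and 227 CPM in IL-27 members (log2FC 4.17 ± 1.09, adjusted p = 0.9997, edgeR). Ror2, a Wnt receptor, was at 57.6, 79.9 and 32.8 CPM in saline members and 99.2, 127 and 181 CPM in IL-27 members (log2FC 1.31 ± 0.34, adjusted p = 0.9997), and Nkd1, a Wnt feedback inhibitor, at 41.4, 53.9 and 27.3 CPM in saline members and 76.9, 81.6 and 118 CPM in IL-27 members (log2FC 1.22 ± 0.29, adjusted p = 0.9997). For all 3 genes every IL-27 library lay above every saline library, a pattern that 3.57% of the genes tested showed, against 4.47% with IL-27 lower. Calcrl, a subunit of the receptor for adrenomedullin, also did not overlap, at 60.5 ± 17 CPM with IL-27 and 29.6 ± 5.63 CPM with saline (log2FC 1.07 ± 0.29, adjusted p = 0.9997, edgeR). The retinol dehydrogenase gene Rdh10 and the neuron navigator Nav1 overlapped between groups, with log2FC values of 0.46 ± 0.21 and 0.29 ± 0.25. The RIKEN gene 0610040J01Rik came closest to the threshold after Adamts19, at 17.7, 20.4 and 15.3 CPM in saline members and 66.8, 56.8 and 62.5 CPM in IL-27 members (log2FC 1.82 ± 0.26, adjusted p = 0.0872, edgeR), and passed without the filter on low counts, without doublets, without mixed nuclei and without nuclei of outlying depth. Bmp2 had 5 UMIs over all members, all in saline libraries, and was not tested. Nkd1 passed without the filter on low counts (adjusted p = 0.00831). Ror2 passed without the filter on low counts (adjusted p = 0.000240) and without nuclei of outlying depth (adjusted p = 0.0376). Of the genes that set members apart, Cd44 differed between treatments by a log2FC of 0.32 ± 0.22, Socs3 by 0.27 ± 0.36, Osmr by 0.30 ± 0.19 and Neat1 by 0.65 ± 0.39, and none passed.

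Over the lists, none of the 18 tested genes of reactive gliosis, of the 18 of gp130 and JAK-STAT signalling or of the 35 other interferon-response genes passed between treatments. Of the interferon-response genes 30 lay above 0, with a median log2FC of 0.36 beside 0.00 over all genes tested. The members compared here had been limited by the rule to at most 1 of its interferon genes. No marker of another cell type was called between treatments, but several lists lay to one side of 0. Of these, 7 of 8 rod, 3 of 3 cone and 5 of 5 bipolar cell markers lay below 0, with medians of -0.14, -0.62 and -0.90. The 3 microglial and 2 astrocyte markers tested lay above 0, with medians of 0.30 and 0.54, and the part of these markers was not tested. Asked gene by gene whether the IL-27 effect in members differed from that in the nuclei lacking the 5 genes, edgeR called none of 9971 genes in either direction (0%), with 165 and 168 at an unadjusted p under 0.05. DESeq2 called Col25a1, and without saline replicate 6 edgeR called 12 genes.

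**Figure D5:**
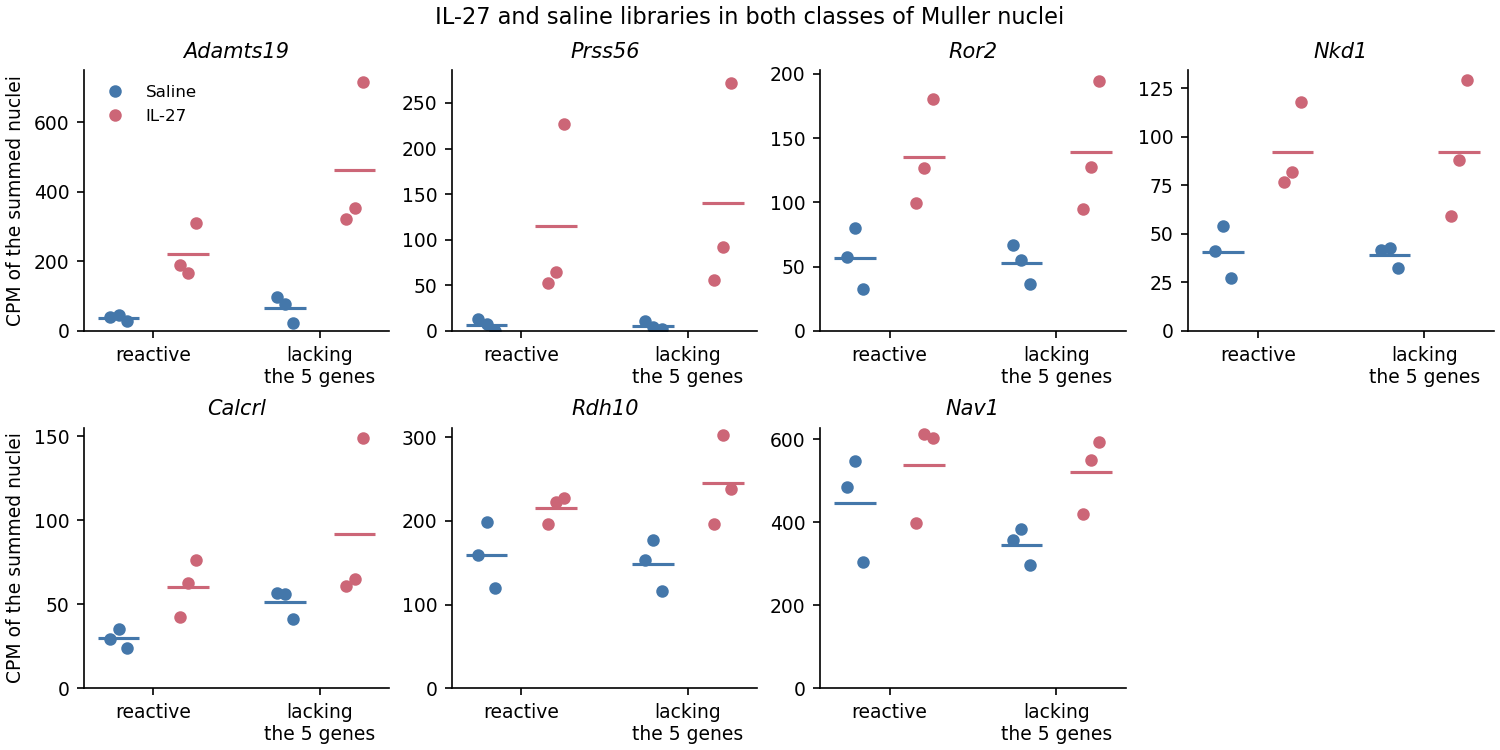
CPM of summed nuclei per library for 7 genes, in members (reactive) and in nuclei lacking the 5 genes; points are libraries and lines group means, blue for saline and red for IL-27. In the members IL-27 libraries lie above saline libraries without overlap for Adamts19, Prss56, Ror2, Nkd1 and Calcrl, and overlap with them for Rdh10 and Nav1.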

How the data were processed

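Nuclei were isolated from frozen retinas of 6 samples and sequenced as 10x single-nucleus libraries. The deposited matrices hold whole-number UMI counts per gene and barcode, which the authors made with Cell Ranger; the methods name version 9.0.1 and the matrix headers version 8.0.1. The genome build of the counting and whether it used strand are not given in the sources used here, so gene positions were taken from GENCODE M21 on GRCm38, where 32158 of 32285 identifiers (99.6%) were found. The authors filtered, removed doublets and clustered (Seurat 5.2.1) after the deposited step, and no annotation of nuclei was used.

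Members were found by the stated rule on raw counts. Doublets were marked with Scrublet through scanpy 1.11.5 at an expected rate of 8% per library and kept in the main fit. Counts were summed per library and class and tested with edgeR 4.0.16 (TMM, filterByExpr with a minimum count of 10, quasi-likelihood test, adjusted p threshold of 0.05), with the library as a block between classes and treatment as the term within members. DESeq2 1.42.0 was the alternative tool. Fold changes are log2 with their standard errors, and ± beside CPM is the SD over libraries. Shares carry 95% exact binomial intervals, and shares were compared by exact permutation. The 20 genes of the rule stayed out of all tests. Genes were named by the smallest adjusted p (15 per direction for members against lacking, 10 elsewhere), by the study's own Muller genes and by the gene lists; where a list is described, members chosen from it after their values were seen serve as examples. The members, lists and tests were chosen with earlier results of these data known. Alternatives were another filter, another scaling, doublets or mixed nuclei removed, other limits, each library left out, and depth-matched comparison nuclei; leaving out nuclei over 30000 UMIs, matched nuclei without doublets, counting without the interferon limit and the carrier comparison were added after seeing the data. The fits were tested on simulated data. Some items are not reported here. Depth was 36678332 to 48260748 UMIs per library. Promoter windows came from RefSeq on GRCm38.p6.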

Additional observations from a re-analysis of the deposited data

Results flagged for a closer look

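In 2 of the named genes members stood above the nuclei lacking the 5 genes in every library of one treatment and below them in every library of the other. Over all 9971 genes tested, 107 (1.07%) were higher in members with IL-27 and lower with saline in this way, and 139 (1.39%) the reverse. For Col25a1, which encodes a transmembrane collagen, the difference between members and lacking nuclei was 3.11 higher with IL-27 than with saline on the log2(CPM + 1) scale. Its members were at 7.38, 20.4 and 9.84 CPM in saline and 97.2, 17.5 and 175 CPM in IL-27 libraries, and its lacking nuclei at 18.3, 20.6 and 76.4 and 35.8, 8.87 and 21.9 CPM. In edgeR the difference of effects had an unadjusted p of 0.00640 and an adjusted p of 0.9999, and in DESeq2 an adjusted p of 0.0368. The gene rests on 186 UMIs over all members.

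For Rdh10, a retinol dehydrogenase, the same value was -0.26. Its members were at 159.5, 199 and 120.3 CPM in saline and 196, 223 and 227 CPM in IL-27 libraries, and its lacking nuclei at 153, 177 and 116 and 197, 302 and 238 CPM, with an adjusted p of 0.9999 for the difference of effects in edgeR. The difference between members and lacking nuclei did not overlap between treatments in 954 genes (9.57%), and among these 0610040J01Rik had an unadjusted p of 0.000305 and an adjusted p of 0.9999.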

How the results depend on the processing

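The difference in the share of reactive nuclei kept its direction with thinning, with 3 of 5 genes, without doublets or mixed nuclei and at a mitochondrial limit of 1%, ranged from 1.90 to 7.52 percentage points with a library left out, and was -0.0251 percentage points as a share of all nuclei that passed. For members against lacking nuclei, DESeq2 called 37 higher and 23 lower, no filter on low counts 148 and 218, leaving out nuclei of outlying depth 210 and 165, and leaving out nuclei over 30000 UMIs 195 and 149, while leaving out a library gave 48 to 132 higher and 42 to 96 lower. Without the replicate block, 4 genes were higher and 1 lower. For IL-27 in members, DESeq2 called 2 higher, no filter 7 higher and 5 lower, a minimum count of 30 none, doublets removed 2 higher, no mixed nuclei 2 higher, no nuclei of outlying depth 3 higher and 2 lower, the UMI covariate 0 higher, and a library left out 0 to 3 higher and 0 to 1 lower. For the difference of effects, DESeq2 called 1 higher and a library left out gave 0 to 12 higher and 0 to 1 lower. For Gfap against Gpnmb, DESeq2 called 0 higher and 1 lower, no filter 21 and 32, no replicate block 0 and 0, and a library left out 0 to 3 in each direction. The cause was not tested. Of single named genes, none reversed its direction where it was called. Between members and lacking nuclei 526 values kept their call and 32 lost it, 26 of these without the block. Genes named by the smallest adjusted p in these same data are more likely to keep a call. Of all 173 calls, 38 were made in every alternative that tested the gene, other than the one without the block. With each library left out in turn, 62 were always called. No paired analysis was possible between treatments because saline and IL-27 libraries share no replicate number. Depth limits which genes were tested. The main fits asked for about 10 UMIs, scaled to the median depth, in at least as many library sums as the smallest group of the comparison held. Rarer genes were not tested.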

Other observations

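Further genes outside the lists, chosen after their values were seen, differed between members and nuclei lacking the 5 genes in edgeR. Among receptors and transporters, Met, the receptor of hepatocyte growth factor, was at 54.5 ± 18.2 CPM against 28.5 ± 4.24 CPM (log2FC 0.86 ± 0.17, adjusted p = 0.00881) and higher in 5 of 6 libraries, and Itga2, an integrin subunit for collagen, was at 36.3 ± 13.1 CPM against 20.4 ± 9.15 CPM (log2FC 0.84 ± 0.17, adjusted p = 0.00938) and higher in 6 of 6. Slc39a14, a zinc and manganese importer, was at 59.5 ± 21.1 CPM against 34.2 ± 15.3 CPM (log2FC 0.81 ± 0.15, adjusted p = 0.00414), and Akap12, a scaffold of protein kinase A, at 85.5 ± 40.3 CPM against 32 ± 10.5 CPM (log2FC 1.35 ± 0.22, adjusted p = 0.0105). All 4 also passed at matched depth, where Akap12 had a log2FC of 1.66; Akap12 kept its call in 3 of 6 fits that left out a library. Crybb3, a beta crystallin, was at 48.9 ± 9.48 CPM against 26.9 ± 3.91 CPM (log2FC 0.84 ± 0.16, adjusted p = 0.00451) and was 1 of the 4 genes called higher without the library as a block.

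Other genes were lower, again chosen after their values were seen and tested as no group. The collagen genes Col2a1, Col9a1 and Col9a3 were called in the main fit. Col2a1 was at 89.2 ± 27.5 CPM against 135 ± 22.1 CPM (log2FC -0.63 ± 0.11, adjusted p = 0.00291) and Col9a1 at 1233 ± 194 CPM against 1625 ± 178 CPM (log2FC -0.41 ± 0.07, adjusted p = 0.00350), each lower in 6 of 6 libraries; at matched depth Col9a1 had an adjusted p of 0.0468 and Col2a1 one of 0.0887, which lost its call. Col9a3 was at 49.96 ± 8.71 CPM against 70.6 ± 12.1 CPM (log2FC -0.51 ± 0.13, adjusted p = 0.0361), with an adjusted p of 0.729 at matched depth and no call in any of the 6 fits that left out a library. Hlf, a transcription factor, was at 172 ± 34.3 CPM against 229 ± 21.1 CPM (log2FC -0.42 ± 0.08, adjusted p = 0.00807) and Per3, a period gene, at 125 ± 15.1 CPM against 168 ± 14.3 CPM (log2FC -0.42 ± 0.09, adjusted p = 0.0118), each lower in 6 of 6, with adjusted p of 0.0165 and 0.0915 at matched depth, where Per3 lost its call. Rora, a nuclear receptor, was at 3743 ± 296 CPM against 4429.98 ± 109 CPM (log2FC -0.25 ± 0.06, adjusted p = 0.0443), with an adjusted p of 0.00189 at matched depth.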
